A study of Mus musculus with 12 samples.

Results

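Whole liver from wild-type mice injected with a GFP plasmid served as the control in a study of the deacetylase gene Sirt2, and 3 of the study's 12 RNA-seq libraries come from it. The libraries, WT GFP 1, 2 and 3, were taken by their labels alone, and the other 9 libraries, which carry a Sirt2 deletion, the oncogene plasmids MET and CAT, or both, enter no comparison here. GFP is a fluorescent reporter protein with no known role in the liver. It was delivered by hydrodynamic injection, in which a large volume is pushed quickly into the tail vein so that plasmid DNA enters hepatocytes, and the plasmids given with the oncogenes include a Sleeping Beauty transposase. Mice were 6 to 8 weeks old at injection, were matched for age and gender, ate a standard diet and were killed 8 weeks later. The protocol states amounts only for the oncogene mixture. The sources used here do not state what the GFP mice received beside the GFP plasmid, their sex, the hour of collection or the feeding state. The labels do not say outright that each library is a different mouse, so every SD below measures the spread between these 3 libraries, which may in part be technical.

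The liver makes most proteins of blood plasma, clears ammonia through the urea cycle, stores and releases glucose, builds and burns fat, makes bile acids and detoxifies foreign compounds. Hepatocytes carry out nearly all of these tasks, and they divide the work along the lobule from the portal to the central vein. Kupffer cells (resident macrophages), sinusoidal endothelium, stellate cells, bile duct cells and blood contribute the remaining RNA of a whole-liver sample. In such bulk RNA, fewer cells of a type and less RNA per cell cannot be told apart.

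The libraries held 20132206, 20271181 and 22253701 reads assigned to genes, and 17585, 17262 and 18474 genes had at least 1 read. Of 47237 genes, 15428 had a read in every library, 26785 had none, and 5786 of the 21655 protein-coding genes were among those without a read. A count of 0 allows up to 3 reads, which is 2.60 to 3.40 normalized units, the unit of the deposited values, and this limit covers counting error only. Hepatocyte markers matched the labelled tissue, since all 13 of them had reads and even the lowest, Hnf4a, stood at a length-scaled level of 196 ± 21.9 (SD, n = 3). Length-scaled levels are reads per exonic base, scaled so that all protein-coding genes sum to 1000000, and they are the scale on which levels of genes are compared, whereas a share of reads also grows with the length of a transcript. Xist, which is transcribed from the inactive X chromosome of females, had 2299.6, 1804 and 2158 normalized units in replicates 1 to 3. The Y-linked gene Ddx3y had 5, 8 and 6 reads. All 3 libraries thus held a high Xist value and almost no Y-linked reads.

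A small number of genes held most of the RNA. The 10 most abundant genes took 20.02%, 21.2% and 21.3% of the reads in the 3 libraries, a mean of 20.8 ± 0.703% (SD, n = 3). The 100 most abundant took 44.7 ± 1.02%, and 164, 142 and 146 genes were enough to reach 50% of the reads. At the other end, 90% of the reads needed 2946, 2587 and 3077 genes. The 3 curves of cumulative share run close together over the whole range of ranks.

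**Figure D1:**
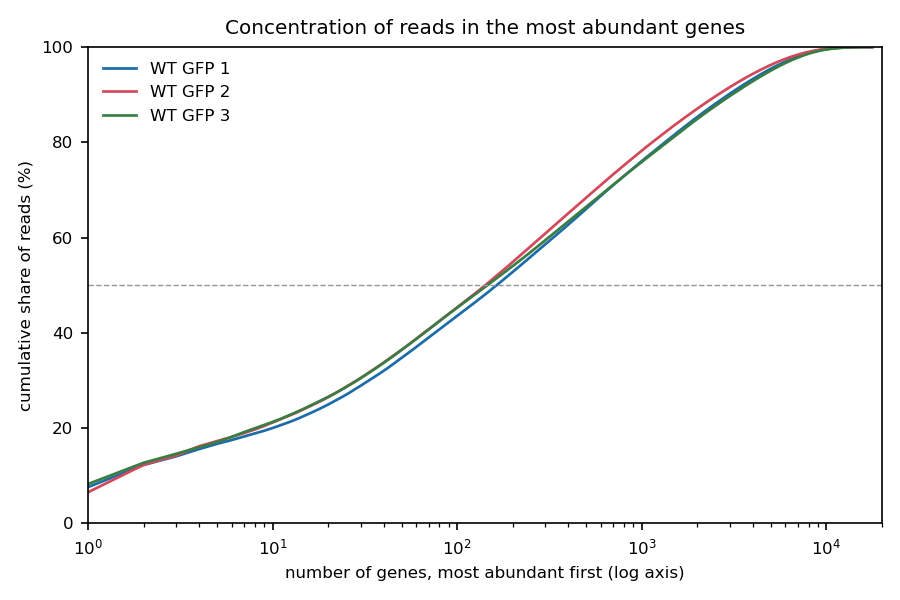
Cumulative share of reads (%, y axis) against the number of genes counted from the most abundant down (log x axis), 1 line per library, with a dashed line at 50%. The lines cross 50% at 164, 142 and 146 genes and stay within a few percentage points of each other.

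Albumin led every library by share of reads. Alb, which encodes the main carrier protein of plasma, took 7.61%, 6.53% and 8.26% of the reads, and the 95% Wilson intervals of these shares (7.60 to 7.62%, 6.52 to 6.54% and 8.25 to 8.27%) cover counting error only and do not overlap. In normalized units the 3 Alb values were far closer, with a highest-to-lowest ratio of 1.06. Apoe, a ligand for lipoprotein uptake, followed with 4.65%, 5.75% and 4.46%. Apoa1 (1.81%, 1.99% and 1.89%) and Apoa2 (1.52%, 1.94% and 1.38%), the main proteins of high-density lipoprotein, came next. Replicate 2 was highest for all 3 of these apolipoproteins and lowest for Alb. Ahsg, the fetuin that binds calcium phosphate, was the steadiest of the leading genes by share of reads, with 1.10%, 1.08% and 1.07%. In normalized units it stood at 220470, 249077 and 206920, a wider relative range than that of Alb.

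Of the 30 genes with the largest mean share, 19 belong to the lists of secreted proteins, and 19 of the 30 stood in the top 30 of every library. Among the leading genes with other roles were the mitochondrial mt-Co1 and mt-Cytb, the alcohol- and drug-oxidizing Cyp2e1 and Adh1, the fatty acid desaturase Scd1, the peroxidase Gpx1, the fatty acid carrier Fabp1, the methyltransferase Gnmt and the urea cycle enzyme Ass1. Scd1 ranged the most of these, at 0.297%, 0.360% and 1.09% of the reads. mt-Co1 was at 0.572%, 0.312% and 1.01%. Both genes were highest in replicate 3, where Scd1 stood at 3.52 times its lowest normalized value.

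**Figure D2:**
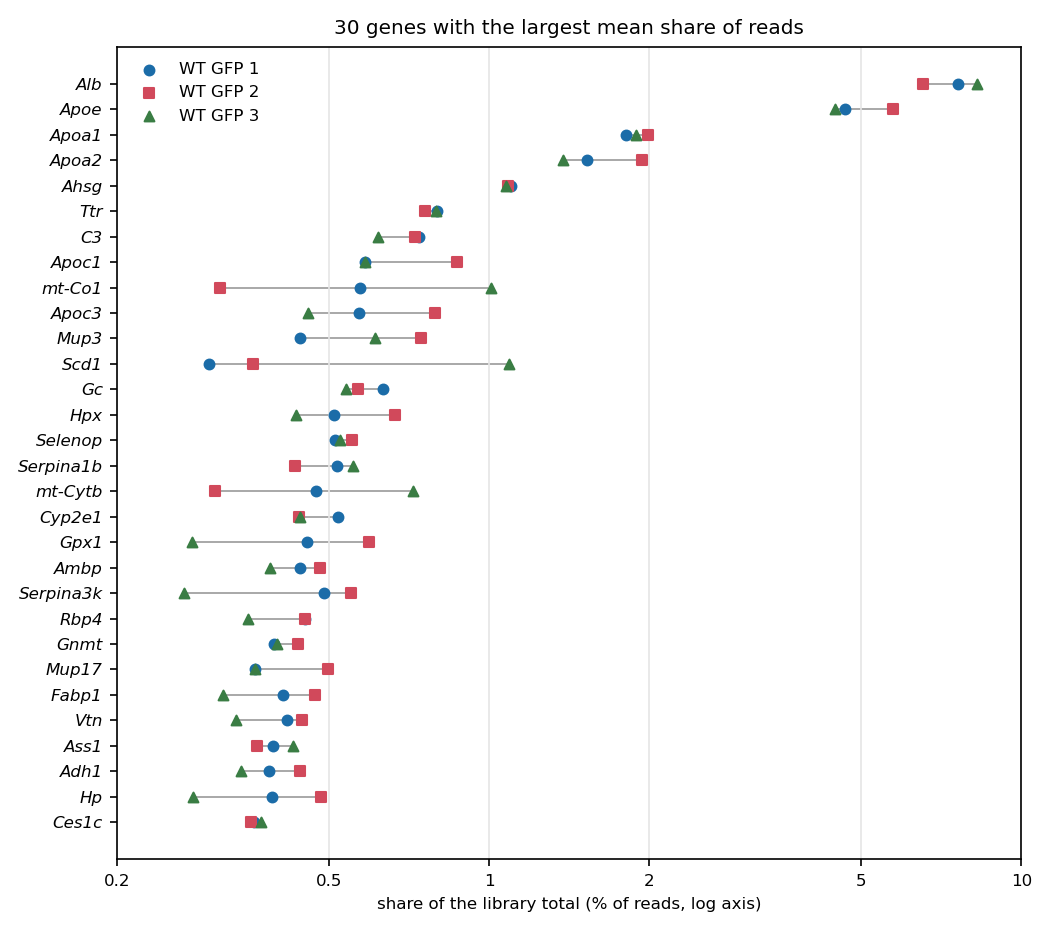
Share of reads (%, log axis) of the 30 genes with the largest mean share, 1 point per library, with a grey line from the lowest to the highest library. Alb and Apoe stand apart at 4.46% to 8.26%, and Scd1 and mt-Co1 show the widest lines, with replicate 3 highest.

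Per exonic base the order changed in favour of short transcripts. Alb kept first place at a length-scaled level of 68082 ± 11148 (SD, n = 3), but Apoa2, whose transcript is short, followed at 63482 ± 8182, and the 2 levels did not differ beyond their spread. Apoa2 exceeded Alb in replicate 2 (72631 against 56180), whereas Alb was higher in the other libraries. Apoe stood at 49059 ± 4398, Apoa1 at 32557 ± 1255 and Apoc1, an inhibitor of lipoprotein uptake, at 19256 ± 3708. Fabp1 (15230.5 ± 2275), the thyroxine and retinol carrier Ttr (14055 ± 1049), Apoc3 (12593 ± 2910) and Mup3 (11852 ± 2687) overlapped in their spread and have no certain order. Hamp, the iron hormone hepcidin, reached 10325 ± 3930 with the widest relative spread of the nuclear genes in the top 20. The 10 highest genes held 29.7% and the 100 highest 57.8% of the length-scaled abundance, while the median protein-coding gene with a read stood at 2.40. With coding length in place of exon length, 15 of the top 20 were shared and Apoe came first, so the order at the top depends on which length is used.

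The promoters of the most abundant genes were searched for the hexamer TATAAA, the core of the TATA box that positions RNA polymerase II. The hexamer was searched on the sense strand with its first base 38 to 22 bases before each RefSeq start (GRCm38.p6). This window was chosen after seeing where the hexamer peaks over all promoters. It was found for 11 of the 70 matched genes among the 100 most abundant (15.7%), for 7.38% of the matched genes among the next 200, and for 2.56% among the 700 after those. Among all protein-coding genes with a read 1.87% had it, and among those without a read 6.04%, so the share was highest at both ends of the abundance range. Of all 32851 promoters of the same length 1.91% held it. The 5 most abundant genes that hold it outside their annotated transcripts are shown first, followed for contrast by the leading genes Alb and Apoe, whose windows lack it. GENCODE places the start of Alb further downstream, at chr5:90460897, and the window before that start was not searched. Capitals mark the hexamer, and each stretch covers the 60 bases before the RefSeq start, 5′ to 3′, on the coding strand. Igfbp4, Sephs2 and Agt are shown because of this match, which was seen before they were picked.
H2-Q10 (chr17:35470029-35470088, plus strand): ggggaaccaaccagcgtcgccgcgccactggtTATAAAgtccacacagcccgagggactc
Apoa5 (chr9:46268548-46268607, plus strand): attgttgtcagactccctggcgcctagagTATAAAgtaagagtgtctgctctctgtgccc
Igfbp4 (chr11:99041184-99041243, plus strand): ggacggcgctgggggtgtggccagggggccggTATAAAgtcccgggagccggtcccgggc
Sephs2 (chr7:127274060-127274119, minus strand): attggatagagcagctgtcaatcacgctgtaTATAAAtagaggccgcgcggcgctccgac
Agt (chr8:124569707-124569766, minus strand): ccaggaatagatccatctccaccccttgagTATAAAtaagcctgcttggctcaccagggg
Alb (chr5:90460810-90460869, plus strand): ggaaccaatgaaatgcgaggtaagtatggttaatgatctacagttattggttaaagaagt
Apoe (chr7:19699189-19699248, minus strand): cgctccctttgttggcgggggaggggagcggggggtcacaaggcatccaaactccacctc

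H2-Q10 encodes a class I molecule secreted by the liver, and it took 0.351 ± 0.0134% of the reads (SD, n = 3). Apoa5, which regulates triglyceride clearance, took 0.249 ± 0.0958%. The stretch before Alb contains GTTAAT, a motif that was counted as well. Searched on both strands over the 250 bases before the start, GTTAAT was found for 22.9% of the 70 matched genes among the 100 most abundant, 5.57% of matched protein-coding genes with a read and 7.49% of all genes in the promoter table. CCAAT, searched the same way, was found for 40.0% of the same 70 genes and 39.9% of matched protein-coding genes with a read. Median GC content of these promoters was 50.6% in the 100 most abundant and 58.8% in protein-coding genes with a read, and the part of base composition in the hexamer counts was not tested. A match is a string of letters and not a measured site.

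Secreted proteins formed the largest class. The lists of secreted proteins took 32.5 ± 1.48% of the reads (SD, n = 3) and 41.8 ± 1.62% of the length-scaled abundance. Drug metabolism took 5.78 ± 0.421% of the reads, mitochondria 5.30 ± 0.679%, lipid metabolism 4.43 ± 0.806%, amino acid metabolism 4.40 ± 0.308% and translation 3.93 ± 0.507%. Metal handling with redox enzymes took 2.46 ± 0.351%, carbohydrates 1.26 ± 0.0713% and protein turnover 1.24 ± 0.0871%. Secreted proteins stood far above the other classes in every library, whereas drug metabolism and mitochondria did not differ beyond their spread by share of reads. Of the length-scaled abundance mitochondria held 8.05 ± 1.49% and drug metabolism 5.18 ± 0.293%, with mitochondria higher in all 3 libraries. Translation held 4.97 ± 0.611% on that scale, lipid metabolism 4.13 ± 0.253% and amino acid metabolism 3.54 ± 0.345%.

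**Figure D3:**
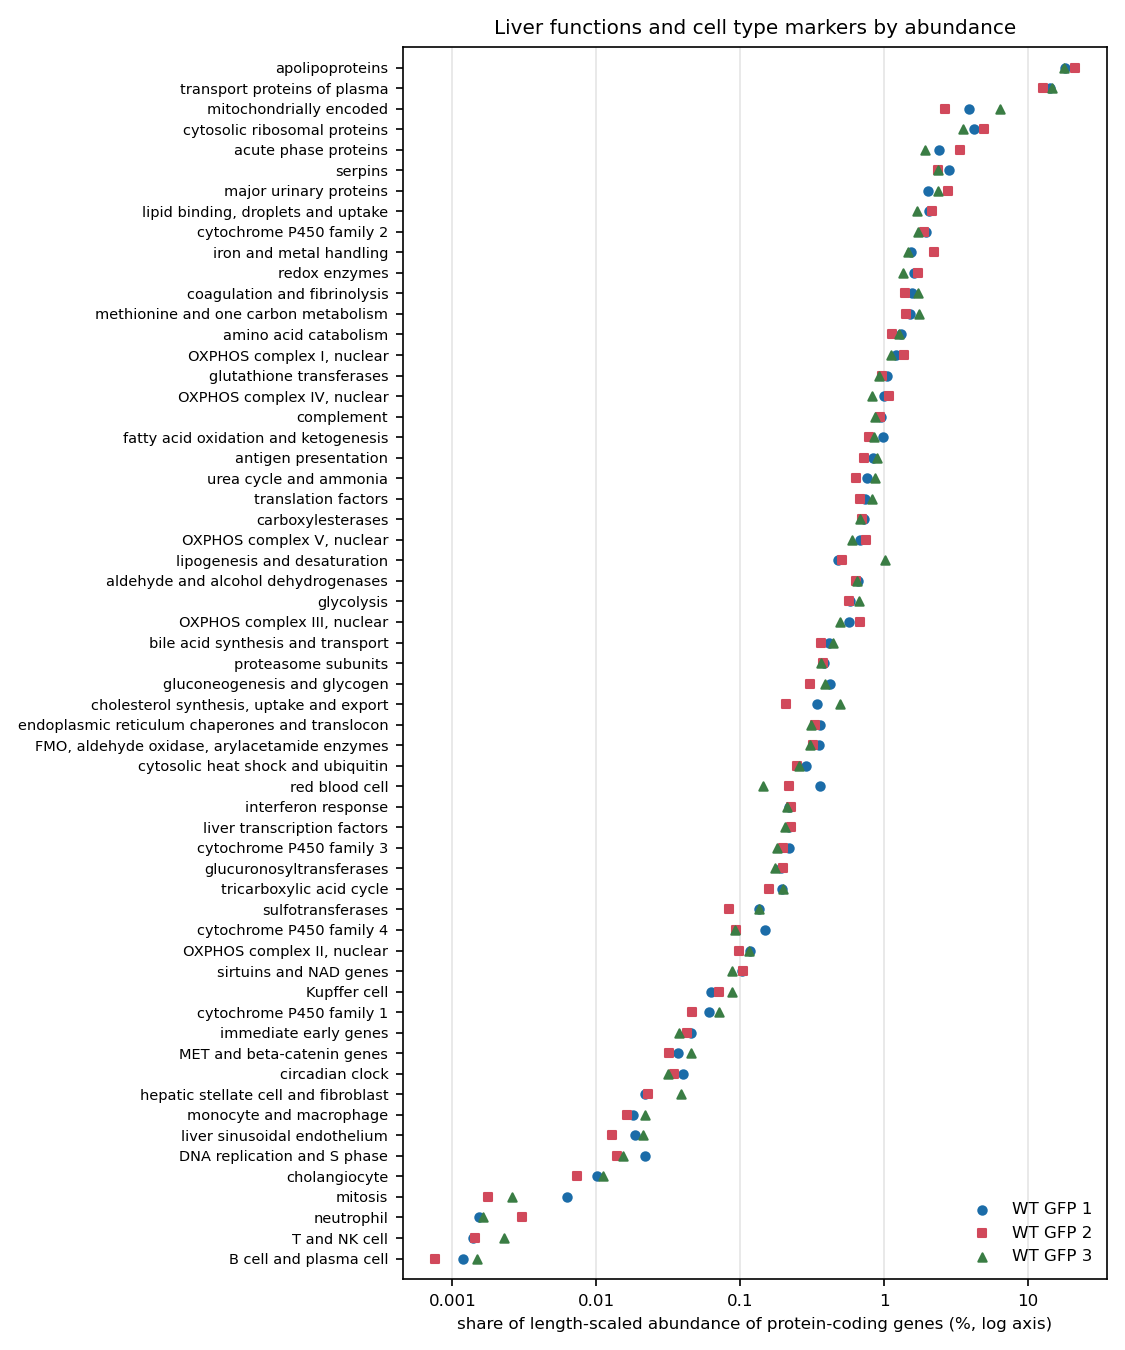
Share of the length-scaled abundance of protein-coding genes (%, log axis) held by each gene list drawn, 1 point per library, ordered by the mean. OXPHOS stands for oxidative phosphorylation and FMO for flavin monooxygenases. Some lists are not drawn, among them the hepatocyte, periportal, pericentral, sex-biased, platelet, pancreas, and gallbladder and gut lists. Among the lists drawn, apolipoproteins and plasma transport proteins lead, and markers of cells other than hepatocytes lie at the low end.

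Apolipoproteins and plasma transport proteins led the secreted class. All 21 apolipoprotein genes listed had reads, and together they took 10.5%, 12.8% and 9.96% of the reads, while the 36 transport proteins took 14.01%, 13.2% and 14.2%. The apolipoproteins spanned from Apoa2 down to Apod, at a length-scaled level of 0.338 ± 0.209. Apob, the scaffold of very-low-density lipoprotein, stood only at 348 ± 27.4 on the length-scaled level. Its long transcript nevertheless took 0.228 ± 0.0125% of the reads. Trf (transferrin), at 175 ± 21.2, shares 63.5% of its exonic bases with another gene on the same strand and is uncertain.

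Serpins, the protease inhibitors of plasma, took 2.50 ± 0.224% of the reads. Of 63 listed genes 40 had a read, and 36 of the 61 with a length-scaled level lay below 1. Serpina3k (4457 ± 1375), Serpina1b (4434 ± 761) and Serpina1d (3973 ± 503) led on the length-scaled level, and their order is not certain given their spread. Serpina1d was very steady at 52897, 54566 and 53613 normalized units, whereas Serpina1e stood at 55666, 31136 and 13499. These near-identical copies can share reads, so each member's value is uncertain. Coagulation factors took 2.33 ± 0.157% of the reads, and all 25 genes found in the table had reads. The fibrinogen chains Fgg (2208 ± 494), Fgb (1980.5 ± 289) and Fga (1422 ± 388) did not differ beyond their spread on the length-scaled level. Within each library, however, Fga was below both Fgb and Fgg. Plasminogen, Plg, was nearly level at 58845, 57679 and 57545 units. Complement genes took 1.42 ± 0.130% of the reads, led by C3 at a length-scaled level of 2865 ± 208.

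Acute phase proteins, which the liver releases in inflammation, took 1.34%, 1.76% and 0.952% of the reads. Hp, which binds haemoglobin, stood at 78301, 111091 and 53454 units, and Orm1 at 19107, 39594 and 16390.4 units. Saa1 and Saa2, the strongest responders to inflammation, were low, at length-scaled levels of 43.8 ± 31.2 and 26.0 ± 18.1. Major urinary proteins, the pheromone carriers of mouse urine, took 0.947%, 1.41% and 1.09%. Mup3 and Mup17 (9299.6 ± 1335) held most of the reads of the 48 listed Mup genes and pseudogenes, of which 33 had a read. Because the Mup genes are close copies, how the reads were split among them is uncertain.

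Among the drug-metabolizing P450 enzymes, family 2 dominated with 1.81 ± 0.175% of the reads, followed by family 3 (0.411 ± 0.0467%), family 4 (0.139 ± 0.0376%) and family 1 (0.0559 ± 0.0091%). Cyp2e1 was the highest member at a length-scaled level of 4604 ± 546, above Cyp2a5 (2905 ± 903) and Cyp2a4 (2673 ± 410.4). Cyp3a11, the main inducible enzyme of family 3, stood at 1493 ± 147, and Cyp1a2 at 593 ± 124. The inducible Cyp1a1 was close to absent at 0.525 ± 0.325. In the conjugating enzymes, glutathione transferases took 0.919 ± 0.0672% of the reads, glucuronosyltransferases 0.206 ± 0.0172% and sulfotransferases 0.0944 ± 0.0103%. Gstm1 (2979 ± 378) and Mgst1 (2285 ± 132) led the first group, Ugt2b5 (610.4 ± 149) the next and Sult1a1 (494 ± 103) the last, on the length-scaled level. Carboxylesterases were led by Ces1c at 3335 ± 234.

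Amino acid metabolism took 4.47%, 4.07% and 4.67% of the reads in replicates 1 to 3. The 12 urea cycle and ammonia genes took 1.09%, 0.971% and 1.19% of the reads. Ass1, which joins citrulline to aspartate, had the highest length-scaled level (3493 ± 436), followed by arginase Arg1 (1244 ± 369). Cps1, the entry enzyme of the cycle, and Glul, which captures remaining ammonia as glutamine around the central vein, were equal within their spread, at 597 ± 167 and 598 ± 151. Otc was lowest of the core enzymes at 174 ± 16.5. Gnmt, which disposes of excess methyl groups, stood at 7225 ± 175 on the length-scaled level. Hpd, of tyrosine breakdown, stood at 3112 ± 119, and Mat1a, which makes S-adenosylmethionine, at 1322 ± 158.

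Carbohydrate genes took a small share of the reads, given above. The length-scaled level of Pklr, the liver pyruvate kinase, was 3.77, 3.02 and 10.2 times that of Pkm, the form of most other tissues. The liver form was thus higher in all 3 libraries, and by most in replicate 3. Among the gluconeogenic genes Fbp1 (1561 ± 192) stood above Pck1 (834 ± 324) and the glucose-6-phosphatase gene G6pc (98.2 ± 52.7) on the length-scaled level.

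Lipid genes covered a wide range. Fabp1 took 47.9% of the reads of the lipid-binding list, and Dbi, the acyl-CoA binding protein, stood at a length-scaled level of 2055 ± 102. Beta-oxidation and ketogenesis took 1.26 ± 0.131% of the reads, with the thiolase gene Acaa2 (1574 ± 131) high on the length-scaled level. Lipogenesis took 0.881%, 0.962% and 2.08%, so that replicate 3 held more than the other libraries. Cholesterol genes took 0.637%, 0.393% and 0.886%, so that replicate 2 held the least and replicate 3 the most. Bile acid genes took 0.529 ± 0.0322%, led on the length-scaled level by Slc27a5 (1138 ± 114), which activates bile acids. The hydroxylase Cyp2c70 stood at 576 ± 59.9, whereas Cyp7a1, the rate-limiting enzyme, stood at 38.5 ± 18.2.

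Mitochondrial DNA contributed 2.33%, 1.76% and 3.69% of the reads. mt-Cytb (9389 ± 4315), mt-Co1 (8837 ± 5278) and mt-Nd1 (8105 ± 3328) led on the length-scaled level and overlapped in their spread. By contrast mt-Co2 stood at 107 ± 30.3 and mt-Co3 at 45.1 ± 7.03, which put mt-Co1 at 74.5, 52.5 and 105 times mt-Co2. Mitochondrial genes are transcribed together as long precursors, and stretches of them have near-identical copies in nuclear DNA, so the values of single members are uncertain. Only 1 of the 22 mitochondrial transfer RNA genes had reads, mt-Tp, at 961, 1287 and 1637 reads.

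Nuclear respiratory chain genes took between 0.118 ± 0.00717% (complex II) and 0.741 ± 0.0919% of the reads (complex V). Their highest members on the length-scaled level were Cox6a1 (2658 ± 379), Uqcr11 (1787 ± 384) and Ndufa2 (1214 ± 313), all small subunits. Cytosolic ribosomal proteins took 2.87 ± 0.560% of the reads. Rplp1 (5951 ± 1114) led, yet the median ribosomal protein gene stood at 234 and Rpl27 at 16.3 ± 4.98, although ribosomes contain these proteins in fixed proportion. Many ribosomal protein genes have near-identical pseudogenes, so the values of single members are uncertain. Eef1a1, which brings transfer RNA to the ribosome, stood at 2810 ± 601. Of the redox and metal genes Gpx1 (6440.3 ± 2046) and the ferritin light chain Ftl1 (3632 ± 56.5) followed Hamp, and Ftl1 had by far the smaller SD.

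Liver transcription factors took a small share of the reads. The 31 liver transcription factors together took 0.330 ± 0.022% of the reads, with a median length-scaled level of 13.8. Cebpa led at 673 ± 15.3, above Cebpb (202 ± 48.9), Creb3l3 (196 ± 79.4), Hnf4a and Rxra (177 ± 13.2), which did not differ beyond their spread. Foxa3 (86.6 ± 19.5) was 12.8, 20.5 and 13.5 times Foxa1 on the length-scaled level.

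Among the sirtuins, the NAD-dependent deacylases, the mitochondrial Sirt3 had the highest length-scaled level (28.4 ± 3.26), followed by Sirt7 (18.1 ± 1.99) and Sirt2 (16.7 ± 0.716). Sirt3 was 1.59, 1.99 and 1.54 times Sirt2. Sirt7 and Sirt2 did not differ beyond their spread, and Sirt5 (6.33 ± 2.02), Sirt4 (5.97 ± 2.07), Sirt1 (1.99 ± 0.979) and Sirt6 (1.56 ± 0.359) were lower. Relative to its level, Sirt2 had the smallest SD of these genes on the length-scaled level. In normalized units Sirt2 stood at 824, 924 and 726 and Sirt7 at 822, 985 and 910, so the range of Sirt7 was narrower there. Of the enzymes that make NAD, Qprt (195 ± 18.8) and Naprt (167 ± 1.01), of the routes from tryptophan and nicotinic acid, were above Nampt (27.5 ± 6.61), of the salvage route.

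Met, the gene of the growth factor receptor after which an oncogene plasmid of the study is named, stood at a length-scaled level of 10.6 ± 2.02, and its ligand Hgf at 0.204 ± 0.176. Hgfac, the protease that activates the ligand, was the highest of the 21 MET and beta-catenin genes at 244 ± 25.8. Ctnnb1, which encodes beta-catenin, stood at 32.8 ± 15.7, with 1544, 1044 and 2210.45 normalized units. Its targets differed greatly in level. Glul was high (598 ± 151), Axin2 (1.11 ± 0.525) and Lgr5 (0.747 ± 0.427) were low, and Axin2 had 65, 29 and 85 reads. The 25 genes of the zone around the central vein took 1.60 ± 0.132% of the reads, 16 of them at a length-scaled level of 100 or more. The 24 periportal genes took 9.02 ± 0.949%, of which 82.8% was Alb alone, so the 2 sums do not measure the size of the zones.

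Markers of other cell types were measurable but low. Kupffer cell markers took 0.0571%, 0.0638% and 0.0750% of the reads, with all 16 detected and C1qa (198 ± 30.3) and Clec4f (115 ± 20.3) among the highest on the length-scaled level. Stellate cell and fibroblast markers took 0.0413%, 0.0409% and 0.0579%, and sinusoidal endothelial markers 0.0400%, 0.0279% and 0.0449%. Replicate 3 was highest for all 3 lists by share of reads. Bile duct markers took 0.0122 ± 0.00195%, with the defining Krt19 at a length-scaled level of 2.94 ± 0.882 and Krt7 at 0.485 ± 0.229. Markers of neutrophils took 0.000797 ± 0.000279%, of T and NK cells 0.00141 ± 0.000233%, and of B and plasma cells 0.00266 ± 0.000655%.

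Red blood cell markers took 0.131%, 0.0863% and 0.0522% of the reads, so replicate 1 held the most and replicate 3 the least. Hba-a1 stood at 10417, 7878 and 3032 normalized units. No read was found for 9 of 11 pancreas markers, among them Prss2, Cpa1 and Cpb1. Adipose and muscle markers all lay below a length-scaled level of 1, and Adipoq had no read. Of the 8 gallbladder and gut markers only Fabp2, which liver also expresses, exceeded a length-scaled level of 10, at 174 ± 52.0.

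Neighbouring genes of the same family differed greatly in level. Afp, the fetal albumin relative, stood at a length-scaled level of 1.87 ± 0.983, and Alb, its neighbour on chromosome 5, at a level 36398 times higher. Afm, the next gene of the same family, stood at 187 ± 21.7, and the vitamin D carrier Gc at 6669 ± 602. On chromosome 9 Apoc3 was 2.59-fold, Apoa5 15.7-fold and Apoa4 344-fold below Apoa1 on the length-scaled level. On chromosome 7 Apoc1 was 2.55-fold and Apoc4 98.7-fold below Apoe. Apoc2, in the same block, had 6, 6 and 15 reads, but most of its exonic bases are shared with a neighbouring gene and its level is uncertain. H19 had 84, 17 and 9 reads, and Lin28b none.

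The libraries were similar to each other, and replicates 2 and 3 stood farthest apart. Over 8479 genes with a mean of at least 100 units, the correlation of log2 values was 0.979 between replicates 1 and 2, 0.975 between 1 and 3 and 0.952 between 2 and 3, all across genes, which are not independent. The median SD of log2(value + 1) was 0.24, and for 90% of the genes it lay between 0.06 and 0.63. After removal of counting noise, the median coefficient of variation was 15.6%, and for 586 genes the estimate was 0. Negative estimates were set to 0, and with 3 libraries a 0 does not show that a gene lacks variation beyond counting. The share of genes with a 2-fold range was 13.1% at a mean of 100 to 300 units, 6.60% at 300 to 1000 and 15.2% at 10000 to 100000.

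In 845 of the 8479 genes (9.97%) the highest library was at least 2-fold above the lowest, and in 70 at least 4-fold. Replicate 1 was the highest in 94 of the 845 (1.11% of the 8479), replicate 2 in 395 (4.66%) and replicate 3 in 356 (4.2%). Replicate 1 was the lowest in 78 (0.92%), replicate 2 in 348 (4.1%) and replicate 3 in 419 (4.94%). In 673 of the 845 genes replicates 2 and 3 formed the ends. Without replicate 2 the number was 223, without replicate 3 it was 152, and without replicate 1 it was 738.

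The difference between replicates 2 and 3 ran with gene length. In the 2119 genes with the shortest exonic length the median deviation from the gene mean was -0.01, 0.19 and -0.18 (log2) in replicates 1, 2 and 3, and in the 2119 longest it was 0.02, -0.10 and 0.09. Short transcripts were therefore higher in replicate 2 and long ones in replicate 3. Replicate 3 also held more reads of ribosomal RNA genes, at 0.168%, 0.181% and 0.621% in replicates 1 to 3. No RNA quality value was at hand, and what sets this trend was not tested. For each gene list the deviations are therefore also given after the median of genes of like length was removed from each library, an alternative added after the data were seen, which left 686 genes with a 2-fold range. Scaling the libraries to equal totals moved the median gene by 0.05, -0.15 and 0.10 (log2) in replicates 1 to 3. On that scale the highest library by median deviation was the same for the cholesterol, lipogenic, acute phase, ribosomal protein, complex I, mitochondrial and male-biased lists described below.

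**Figure D4:**
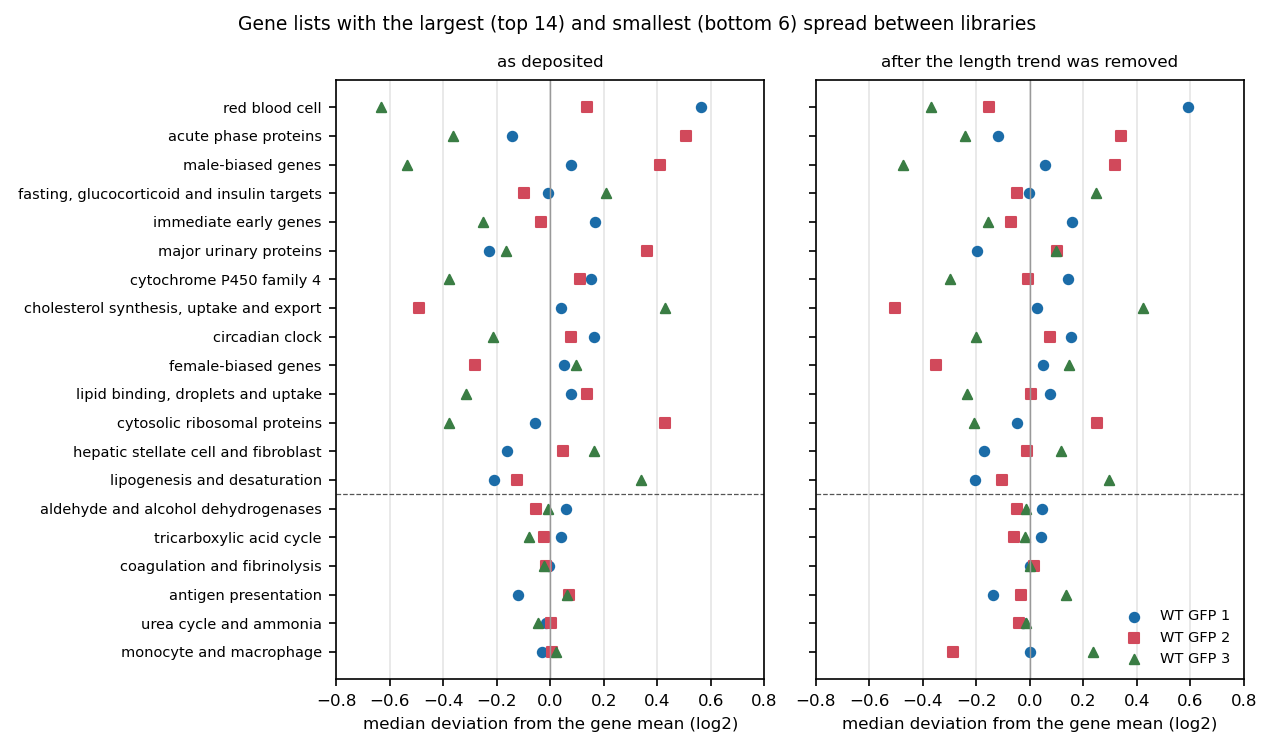
Median deviation of a list's genes from their mean over the 3 libraries (log2, x axis), 1 point per library, as deposited (left) and after removal of the length trend (right). Lists with at least 6 genes of a mean of at least 100 were ordered by their median SD between libraries. Only those with the largest (top) and the smallest (bottom) are drawn, split by a dashed line, so the wide spreads are not typical of all lists. Cholesterol genes keep replicate 3 high and replicate 2 low in both panels, whereas the ribosomal proteins move closer to 0 on the right.

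Genes of cholesterol synthesis and uptake were spread widely, and mostly in the same order. Hmgcs1, which makes HMG-CoA for the sterol pathway, stood at 12564, 3299 and 24878 normalized units, a 7.54-fold range. Lss, the lanosterol synthase, stood at 1314, 637 and 2271 units, and Msmo1 at 7522, 3132 and 7833 units. All 3 genes were lowest in replicate 2 and highest in replicate 3. Of the 29 listed genes 13 had a 2-fold range against 9.97% of all genes, and replicate 3 was the highest in all 13, against 4.2% of all genes. The list's median deviation was 0.04, -0.49 and 0.43 as deposited and 0.03, -0.50 and 0.42 with the length trend removed.

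Lipogenic genes were highest in replicate 3 in 15 of the 24 with a mean of at least 100, against 36.0% of all genes. Fasn, the fatty acid synthase, stood at 10934, 13116 and 36638 units. Scd1, the desaturase, stood at 59664, 82767 and 210076 units, and Gpam, which starts triglyceride synthesis, at 405, 231 and 1413 units. Replicates 1 and 2 lay close together for Fasn and Scd1, and replicate 3 lay apart. Of the 24 genes, 9 had a 2-fold range, against 9.97% of all genes, and replicate 3 was highest in all 9, against 4.2%. Acss2, which activates acetate, stood at 4701, 3483 and 13996 units.

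Genes linked to insulin and fasting took no common order. Igfbp1, a secreted binder of insulin-like growth factors that insulin represses, stood at 394, 122 and 1689 units (13.7-fold). This was the widest range of all named genes with a mean of at least 100 units. Angptl8, which insulin and feeding induce, was reversed at 907, 3724 and 509 units. Pck1, of fasting gluconeogenesis, was highest in replicate 1 at 38054, 21526 and 22724 units, and G6pc was highest in replicate 3 at 2263, 1224 and 3139 units. Of the 16 genes of the fasting, glucocorticoid and insulin list with a mean of at least 100, 8 had a 2-fold range, against 9.97% of all genes. Replicate 1 was highest in 1 of them, replicate 2 in 4 and replicate 3 in 3, against 1.11%, 4.66% and 4.2% of all genes.

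Acute phase genes were highest in replicate 2. Saa1 stood at 447, 2230.2 and 714 units, Orm3 at 206, 733 and 151 units, and the siderophore binder Lcn2 at 240.3, 623 and 146 units. Hamp stood at 32945, 69307 and 26908 units. The replicate 2 value was above the other libraries in each of these genes. Of the 20 genes measured 11 had a 2-fold range, against 9.97% of all genes. Replicate 2 was highest in 10 of the 11, against 4.66% of all genes. The median deviation was -0.14, 0.51 and -0.36, and -0.12, 0.34 and -0.24 with the length trend removed. The 12 detected of 13 neutrophil markers summed to 142, 255 and 111 normalized units and were highest in replicate 2 too, at 0.000705%, 0.00111% and 0.000575% of the reads. The 16 Kupffer cell markers, all detected, summed to 11456, 14666 and 14455 units, and by share of reads they were highest in replicate 3. The part of these cells in the acute phase values was not tested. Hamp2, a close copy of Hamp, was highest in replicate 3 instead, at 220.4, 434 and 1377 units.

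**Figure D5:**
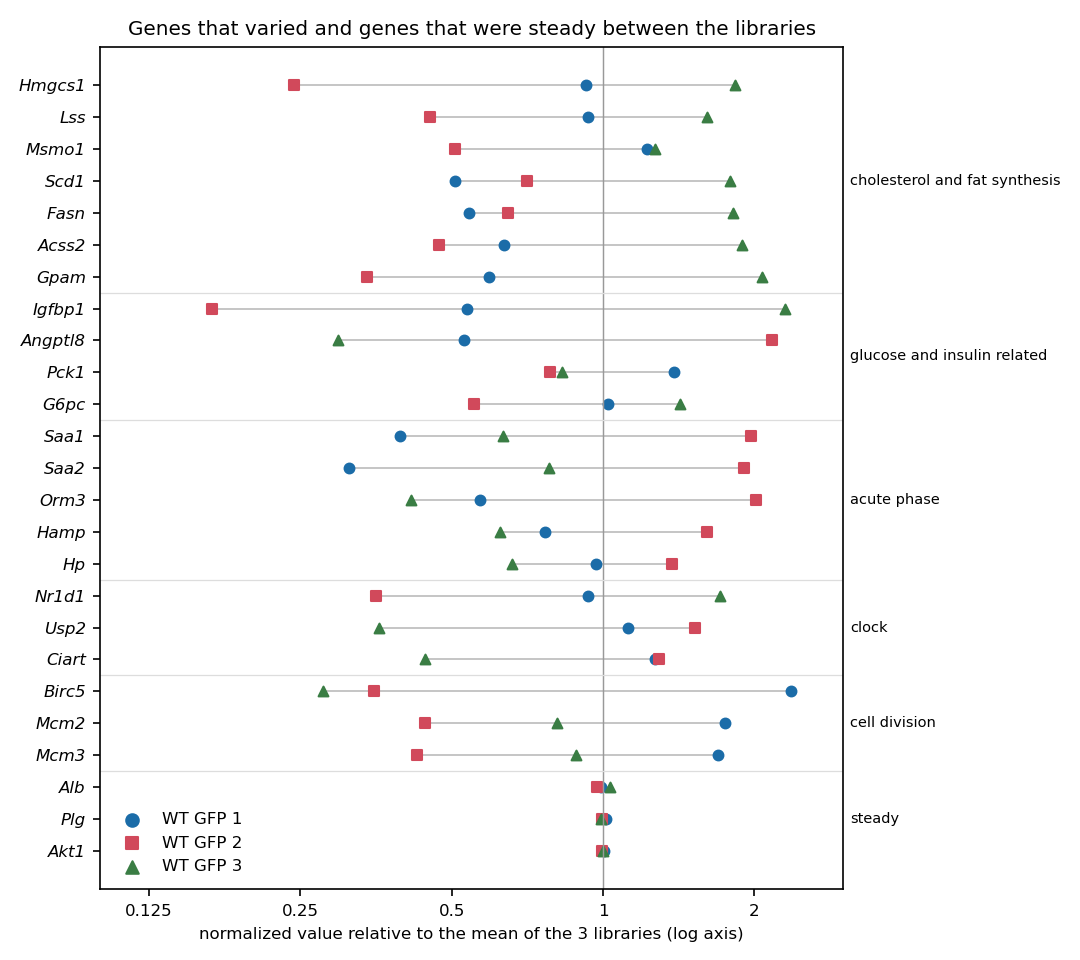
Normalized value of each gene relative to its mean over the 3 libraries (log axis), 1 point per library, grouped by role. Igfbp1 spans 13.7-fold and Hmgcs1 7.54-fold, whereas the points of Alb, Plg and Akt1 lie close together.

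Ribosomal proteins were nearly all highest in replicate 2. Of 81 ribosomal protein genes 78 were, against 42.0% of all genes, and 20 had a 2-fold range, against 9.97%. Their median deviation was -0.06, 0.43 and -0.38 as deposited and -0.05, 0.25 and -0.21 with the length trend removed. The nuclear genes of complex I showed -0.07, 0.38 and -0.30, and -0.05, 0.19 and -0.09 with the trend removed. With the trend removed, the median SD was 0.26 in place of 0.41 for the ribosomal proteins and 0.21 in place of 0.37 for complex I, whereas for the cholesterol genes it was 0.51 in place of 0.46. Complex II did not share this order, at 0.05, 0.05 and -0.11 as deposited. Genes on mitochondrial DNA were highest in replicate 3 in 11 of 14, against 36.0% of all genes, with median deviations of -0.12, -0.10 and 0.34 as deposited and -0.09, -0.40 and 0.60 with the trend removed.

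Genes of dividing cells were highest in replicate 1, at low levels. Birc5, an inhibitor of apoptosis expressed in mitosis, had 215, 28 and 29 reads. Mki67, the proliferation marker, had 130, 17 and 38 reads. Replicate 1 was the highest for 20 of the 25 mitosis genes and for 23 of the 27 genes of DNA replication, where it was the highest for 26.8% of all genes with a mean of 10 to 100 units. The replicative helicase gene Mcm2 stood at 192, 48.7 and 89.2 units and Myc, which drives growth, at 245, 85.0 and 71.0 units. Cdca3, of entry into mitosis, stood at 247, 52.1 and 31.2 units, and among named genes with a mean of at least 100 units it had the largest ratio of replicate 1 to the next library. Even in replicate 1 the 25 mitosis genes took only 0.0103% of the reads. Red blood cell markers were highest in replicate 1 too, at the shares given above, and their part was not tested.

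Clock genes and genes of sex-biased liver expression also varied. Of 18 clock genes 6 had a 2-fold range, against 9.97% of all genes. Replicate 1 was highest in 1 of them, replicate 2 in 4 and replicate 3 in 1, against 1.11%, 4.66% and 4.2% of all genes. Nr1d1, a repressor of the clock, stood at 507, 192 and 927 units. Usp2, an output of the clock, stood at 1768, 2404 and 566 units. Ciart stood at 321, 326 and 112 units. Replicate 3 was thus highest for Nr1d1 and lowest for the other 2 genes. Of the 17 male-biased genes with a mean of at least 100, 9 had a 2-fold range, against 9.97% of all genes, and none had replicate 3 highest, against 4.2%. Mup20, the male pheromone darcin, stood at 10447, 12454 and 3092 units. Of 20 female-biased genes 8 had a 2-fold range, against 9.97% of all genes. Replicate 1 was highest in 5 of them, replicate 2 in 1 and replicate 3 in 2, against 1.11%, 4.66% and 4.2% of all genes. The summed value of the list was 91389, 94598 and 70748 units. Among them Sult2a1, a steroid sulfotransferase, stood at 1427, 170.0 and 989 units and Hao2, an oxidase of hydroxy acids, at 208, 37.4 and 366 units. Both were lowest in replicate 2, as were 14 of the 27 listed genes with a read, while 12 were lowest in replicate 3. Over all genes with a mean of at least 100 units, replicate 2 was the lowest in 37.0% and replicate 3 in 42.4%. At a mean of 10 to 100 units these shares were 42.9% and 25.5%.

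Single genes that set 1 library apart were mostly in replicates 2 and 3. Replicate 1 was at least 2-fold above both others in 8 genes and below both in 5, replicate 2 in 38 and 63, and replicate 3 in 57 and 93. Above in replicate 3 stood Nfe2 (96.7, 68.0 and 542 units), Depp1 (786, 621 and 3722 units), the water channel gene Aqp8 (1842, 2109 and 8230.3 units) and Malat1, a nuclear noncoding RNA (1155, 953 and 4488 units). Below in replicate 3 stood Gadd45g, a stress gene (565, 1007 and 105 units), Tsku (2729, 5512 and 590 units) and Alas1, which starts haem synthesis (16579, 22237 and 4874 units). Of the 845 genes with a 2-fold range, 57 fell in kinds left unnamed by rule and are only counted. These kinds are predicted genes, clones, pseudogenes, receptor segments and some noncoding RNA types.

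Several lists varied less than all genes by their median. None of 24 coagulation genes, 12 urea cycle genes, 18 genes of the tricarboxylic acid cycle and 15 antigen presentation genes had a 2-fold range, against 9.97% of all genes. At that share only a few genes per list would be counted, so a count of none says little by itself. The median SD of log2 was 0.17, 0.14, 0.19 and 0.16 in these lists, against 0.24 over all genes. Akt1, a kinase of the insulin signal, was the steadiest gene with a mean of at least 1000 units, at 1038, 1030.1 and 1035 units. Mgst3, a microsomal glutathione transferase, stood at 1407, 1424 and 1425 units, and Gclc, of glutathione synthesis, at 1440.0, 1426 and 1456 units. Met was steady as well at 777, 745 and 836 units, whereas Ctnnb1 had a 2.12-fold range.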

How the data were processed

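The authors deposited 1 table of gene values per library, in which each value is a normalized signal, the read count of a gene divided by 1 factor for the library. Reads were aligned with HISAT2 2.0.4 to GRCm38 and counted with HTSeq 0.11.2, per the submitters' processing notes. The normalization tool, the library kit and its strand setting were not given in the sources used here. The table has 47263 rows. Of these, 26 with date-like names, left by spreadsheet software, were not used, and 47191 of the remaining 47237 symbols were matched to GENCODE M21 for gene type and exon length. Every column of the table belongs to a sample (0 do not), and only the 3 WT GFP columns were analysed.

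Whole reads were recovered from the steps between values. 1 read was worth 0.997, 1.13 and 0.866 normalized units, and 100% of values came out whole within 0.01 read. Shares of a library are shares of these reads, and their 95% intervals are Wilson intervals. Since the reads were not marked by molecular identifiers in any source used here, intervals cover counting error only. Length-scaled levels divide reads by the union of a gene's exons. Spread was measured as the SD of log2(value + 1) over genes with a mean of at least 100 units. No test was run, since there is 1 group and nothing to compare it with.

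Genes named are, by rule, the 30 with the largest share of reads, the 20 highest per length, up to 6 leading and 4 most variable members of each of 73 lists, the 30 most and 10 least variable, and up to 10 set apart in each library. Nampt, Mki67, Apod, Trf and other members given for contrast were picked after their values were seen. Results for some genes are not reported here. The library set, the lists and the rule were chosen with earlier results of these data known. Alternatives were other library scalings, pseudocounts, minimum means and gene lengths, each library left out, and removal of the length trend, the last added after seeing the data. Scripts were tested on simulated data. For variation beyond counting, the pass rule there used a root mean over genes and not the median given above. Python 3.11.15, numpy 2.4.6, pandas 2.3.3, scipy 1.17.1 and matplotlib 3.10.9 were used.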

Additional observations from a re-analysis of the deposited data

How the results depend on the processing

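No paired analysis was possible because the results come from 1 group and from no test. With a minimum mean of 10 units in place of 100, the median SD of log2 values was 0.30 and 2842 of 13073 genes had a 2-fold range. With a minimum of 1000 units, 253 of 2423 genes did. With 1 library left out, the median SD lay between 0.17 and 0.27, the number of genes with a 2-fold range between 152 and 738, and the median coefficient of variation beyond counting between 10.2% and 17.5%. A range over fewer libraries is smaller by construction, and the highest of these values came without replicate 1. Shares of the 10 and 100 most abundant genes, the number of genes that reach 50% of the reads and the number of genes detected stayed within the spread between libraries or within 1.5 times under all alternatives tried. Of the alternatives for the lists, 503 values of the spread between libraries stayed within that limit and 106 did not, 305 shares did and 59 did not, and 75 ranks on the length-scaled level did and 25 did not. Depth limits what can be said of genes under 100 units, which were left out of the spread, and of genes with no read.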

Other observations

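Genes of the immediate early response, which stress and handling can induce within minutes, were measurable and without a common order. Dusp1, a phosphatase of this response, stood at 300.2, 731 and 127 normalized units, and Egr1 at 115, 39.7 and 249 units, so that replicate 2 was highest for the former and lowest for the latter. Of 17 such genes with a mean of at least 100 units, 7 had a 2-fold range, against 9.97% of all genes. Replicate 1 was highest in 2 of them, replicate 2 in 2 and replicate 3 in 3, against 1.11%, 4.66% and 4.2% of all genes.

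Lars2, the mitochondrial leucyl-tRNA synthetase gene, named after its values were seen, stood at 10005, 16522 and 39534 units and was highest in the library with the most ribosomal RNA reads. Hamp exceeded its copy Hamp2 on the length-scaled level by 213, 227 and 27.8 times, so replicate 3 differed from the other libraries in this ratio.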
